A study of Mus musculus with 10 samples.

Results

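The genes described here are 33 genes of glycolysis, lactate transport and the hypoxia response, given as a list of names, in RNA-seq of mouse neural stem cells. All 33 were among the 21101 genes of the table, and all 33 were among the 15660 genes tested, which had at least 1 TPM, a length-scaled share of transcripts, in at least 2 of the 10 libraries. The groups were 3 Atrx-deleted lines (mA16d#4, mA19d#4 and mA19d#7) after 8 days in differentiation medium, 2 control lines (Control NSC#1 and Control NSC#2) after the same 8 days, the same 3 Atrx-deleted lines in proliferation medium, and the same 2 control lines in proliferation medium. All 5 lines, controls included, were p53-null and carried transduced IDH1(R132H), a mutant isocitrate dehydrogenase that makes 2-hydroxyglutarate, so no group has wild-type p53 or lacks the transgene. Proliferation medium held EGF and bFGF at 20 ng/ml, and differentiation medium was neural basal medium with B27 and no growth factors. Values of single libraries are given for the lines in the order named above. Each line was sequenced once per medium, so the error values measure the spread between lines, and how the lines were derived is not given in the sources used here. The sample codes have 1 prefix for all control libraries and another for all Atrx-deleted libraries, so Atrx deletion and any difference in handling cannot be told apart.

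Glycolysis breaks glucose down to pyruvate, which lactate dehydrogenase turns into lactate or which mitochondria oxidise. Hypoxia-inducible factors are stable when oxygen, iron or 2-oxoglutarate is short for the prolyl hydroxylases that mark them for destruction, and they switch on many glycolytic genes. Neural stem cells are known for strong glycolysis, and astrocytes for keeping a high glycolytic rate and exporting lactate. ATRX is a chromatin remodeller that deposits histone H3.3 with DAXX in heterochromatin.

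The promoters of 3 textbook hypoxia targets are shown, the glucose transporter Slc2a1, which passed the test below, and the lactate dehydrogenase subunit Ldha and the phosphoglycerate kinase Pgk1, which came near it. The 250 bases before the annotated start are from RefSeq (GRCm38.p6), on the + strand, and capitals mark ACGTG and GCGTG, the core letters that hypoxia-inducible factors bind, on either strand (as CACGT and CACGC on the other strand). Slc2a1 is at chr4:119108495-119108744, Ldha at chr7:46845554-46845803 and Pgk1 at chrX:106186850-106187099.
Slc2a1: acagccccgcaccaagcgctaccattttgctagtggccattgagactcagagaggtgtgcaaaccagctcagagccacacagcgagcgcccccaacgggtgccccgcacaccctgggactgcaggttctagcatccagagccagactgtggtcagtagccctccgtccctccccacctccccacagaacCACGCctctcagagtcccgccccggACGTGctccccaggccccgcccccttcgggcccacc
Ldha: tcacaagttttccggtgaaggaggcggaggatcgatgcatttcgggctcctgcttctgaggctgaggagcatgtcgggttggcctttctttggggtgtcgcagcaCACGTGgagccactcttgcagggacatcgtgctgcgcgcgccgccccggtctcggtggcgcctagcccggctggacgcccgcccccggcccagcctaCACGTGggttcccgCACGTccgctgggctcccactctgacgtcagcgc
Pgk1: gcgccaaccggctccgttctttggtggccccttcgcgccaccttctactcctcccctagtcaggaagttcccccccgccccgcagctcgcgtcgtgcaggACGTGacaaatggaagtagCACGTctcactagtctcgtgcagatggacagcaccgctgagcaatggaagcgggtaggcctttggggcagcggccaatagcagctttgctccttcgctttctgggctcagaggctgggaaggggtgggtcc
Slc2a1 and Pgk1 had 2 cores each and this Ldha promoter had 5, where a palindromic CACGTG counts as 2 overlapping cores. The other RefSeq promoter of Ldha had 1 core. Pfkm and Pdk2, which also came near the test and are not shown, had 0 to 2 cores in each promoter. No cut was set for coming near. Gpi1, at a limma adjusted p of 0.0927 between media over all lines, had 0 cores. Of the listed genes, 29 had 43 promoters in the RefSeq table. For 38 of these 43, bases after the start matched a transcript of the gene. At least 1 core within 250 bases was held by 76.7% of the 43 promoters. The share was 53.1% of the 14793 promoters of tested genes and 38.6% of all 32851 promoters in the table. Median GC content moved with these shares, at 60.4%, 59.2% and 52.4% for the listed, tested and all promoters, and its part in the difference was not tested. Tpi1, a triosephosphate isomerase gene whose level fell in differentiation medium, had 0 cores in this window. Slc2a3, Slc16a13, Epas1 and Ndrg1 had no promoter in the table.

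Atrx itself had 54.4, 47.2 and 54.0 TPM in the Atrx-deleted lines in differentiation medium and 128 and 127 TPM in the control lines there. In proliferation medium it had 71.6, 42.8 and 74.0 TPM in the Atrx-deleted lines and 163 and 149 TPM in the control lines. The differences were -1.28 and -1.34 in differentiation and proliferation medium (limma adjusted p = 0.0204 and 0.039). Reads on the remaining exons would count toward the gene, so the level checks the labels without showing how much protein was left. Idh1 had 151, 235 and 72.2 TPM in the Atrx-deleted lines and 226 and 243 TPM in the control lines in differentiation medium, and these values do not separate the transgene from the mouse gene. The deposited values share 1 distribution across libraries, which hides sequencing depth, and counting error could not be computed. Summed TPM of 10 stem cell markers was 10720 to 13580 in the Atrx-deleted and 10520 to 13660 in the control libraries. Single markers changed within that sum. Over all lines 3 of the 10 passed as lower in differentiation medium, Nes, Hes5 and Hes1, and 7 of the 10 changes were negative. In control lines alone Nes passed as lower. For Atrx deletion 0 of the 10 passed in either medium by limma. The endothelial markers Cdh5 and Cldn5 were below 0.04 TPM throughout. Of the 10 endothelial and mural markers, however, 6 were high enough to be tested, and Des and Acta2 passed between media over all lines. Across the 10 libraries the summed TPM of 10 markers each was 5.97 to 12.7 for endothelial and mural cells, 3.23 to 18.2 for microglia and macrophages, 474 to 1231 for neurons and 2059 to 5236 for the oligodendrocyte lineage. The mA19d#7 library in differentiation medium stood apart: its Spearman correlation was 0.957 with mA16d#4 in proliferation medium and 0.926 with its own line there. The files do not settle whether its label is right, so the changes given below for mA19d#7 between media, and its pairing by line, hold only if it is. Leaving this library out moved the Atrx difference in differentiation medium by the most, among listed genes, for Ndrg1, Adm, Ldhb, Slc16a1 and Pfkfb3, and those values are given below.

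The clearest difference between Atrx-deleted and control lines was Slc16a13, a member of the monocarboxylate transporter family that also holds the lactate carriers. It had 27.2, 32.4 and 24.9 TPM in the Atrx-deleted lines in differentiation medium, against 1.51 and 3.56 TPM in the control lines. In proliferation medium it had 22.7, 37.8 and 38.0 TPM in the Atrx-deleted lines, against 2.58 and 2.06 TPM in the control lines. The lowest Atrx-deleted library was far above the highest control library in both media, so the groups did not overlap. The mean was 28.2 ± 3.83 TPM in Atrx-deleted lines (SD, n = 3) and 2.53 ± 1.45 TPM in control lines (SD, n = 2) in differentiation medium, a ratio of 11.1. In proliferation medium the means were 32.8 ± 8.77 TPM (SD, n = 3) in Atrx-deleted lines and 2.32 ± 0.368 TPM (SD, n = 2) in control lines, a ratio of 14.2. On the log2(TPM + 1) scale used for all tests, the difference was 3.10 (SE 0.337, limma adjusted p = 0.00323) in differentiation medium and 3.32 (SE 0.337, limma adjusted p = 0.00399) in proliferation medium. Without the Control NSC#1 library of the same medium the adjusted p was 0.0633 in differentiation and 0.0741 in proliferation medium, and without Control NSC#2 it was 0.0933 in proliferation medium. With the compared groups fitted alone it was 0.105 in differentiation medium. With the whole line mA19d#7 left out it was 0.014 in differentiation and 0.0186 in proliferation medium (all limma).

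Slc16a13 lies on mouse chromosome 11 at 70216789 to 70221064 on the minus strand (GRCm38, GENCODE M21). Slc16a11, another monocarboxylate transporter gene, lies 371 bases away on the opposite strand. Slc16a11 had 2.90, 1.61 and 2.24 TPM in the Atrx-deleted and 0.496 and 1.58 TPM in the control lines in differentiation medium. In proliferation medium it had 1.72, 1.79 and 1.93 TPM in the Atrx-deleted lines and was near 0 in the control lines, at 0.00712 and 0.0494 TPM. These differences were 0.71 (limma adjusted p = 0.345) in differentiation and 1.45 (limma adjusted p = 0.146) in proliferation medium and did not pass the test. Of the 5 tested genes within 100 kb of Slc16a13, 0 passed in either medium.

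Slc2a1, which encodes the main glucose transporter of most cells (GLUT1), was lower in Atrx-deleted lines after differentiation. In differentiation medium it had 48.5, 27.7 and 51.2 TPM in the Atrx-deleted lines and 105 and 104 TPM in the control lines. In proliferation medium it had 22.7, 29.4 and 23.9 TPM in the Atrx-deleted lines and 32.8 and 32.5 TPM in the control lines. Every Atrx-deleted library was below both control libraries of its medium, and the control lines lay close together. In differentiation medium the mean was 42.5 ± 12.9 TPM in Atrx-deleted lines (SD, n = 3), which is 40.6% of the 105 ± 0.769 TPM in control lines (SD, n = 2). The difference was -1.33 (SE 0.253, limma adjusted p = 0.0262) in differentiation medium and -0.36 (SE 0.253, limma adjusted p = 0.574) in proliferation medium. The call in differentiation medium was lost without either control library of that medium (adjusted p = 0.234 and 0.145), narrowly without either control library of the other medium (0.0535 each), without the filter on low levels (0.0586) and with the compared groups fitted alone (0.168, all limma). With the whole line mA19d#7 left out the limma adjusted p was 0.0306. Slc2a1 spans 119108711 to 119137983 on chromosome 4 and overlaps the antisense genes Gm12867 and Gm12868, and the use of strand in counting is not given in the sources used here.

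**Figure D1:**
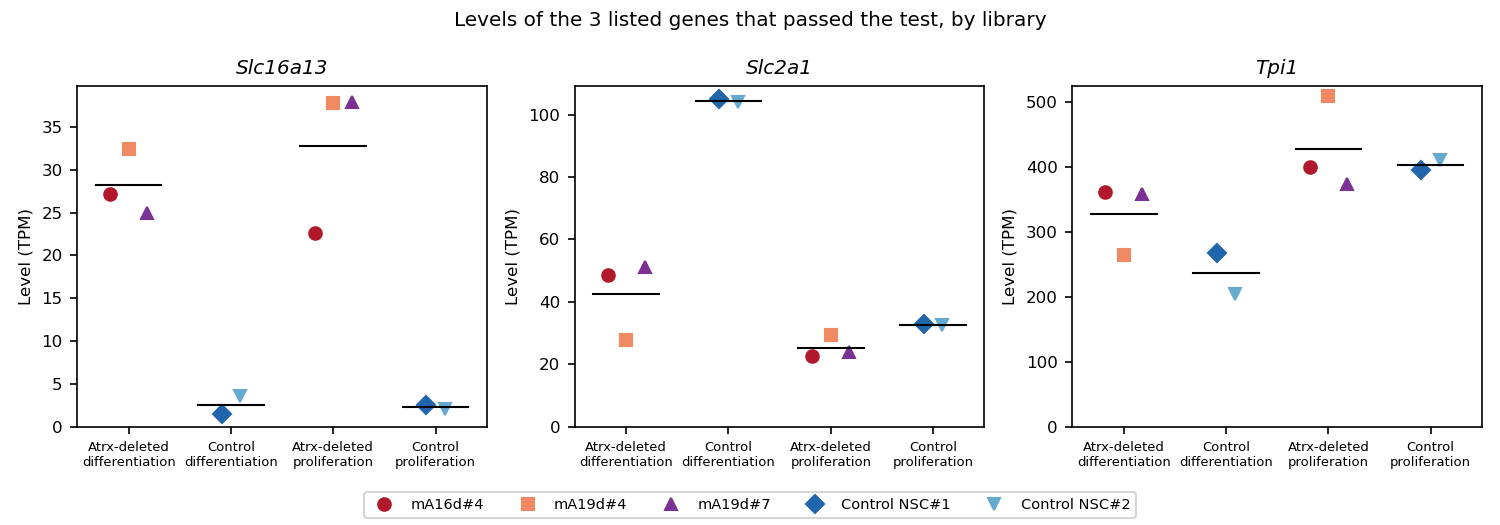
Levels (TPM, linear axes from 0) of Slc16a13, Slc2a1 and Tpi1 in each of the 10 libraries. Points are libraries, marked by line, and bars are group means. Slc16a13 is at 22.7 TPM or more in every Atrx-deleted library and at 3.56 TPM or less in every control library, and Slc2a1 is highest in the control libraries in differentiation medium.

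Of the 33 listed genes, 2 passed the test for Atrx deletion in differentiation medium, Slc16a13 higher and Slc2a1 lower, where 2.89% of all tested genes passed. In proliferation medium 1 passed, Slc16a13, where 0.46% of all tested genes passed. The members were chosen with earlier results of these data known. These counts therefore cannot show that the list differs from other genes. At an unadjusted p under 0.05 the listed genes numbered 9 of 33 (27.3%) in differentiation medium, beside 20.2% of all tested genes, and 4 of 33 (12.1%) in proliferation medium, beside 13.7%. The median difference over the listed genes was -0.15 in differentiation medium and -0.02 in proliferation medium, beside 0.02 and -0.02 over all tested genes. Listed genes with negative differences numbered 20 of 33 in differentiation and 17 of 33 in proliferation medium. The other listed genes did not pass in either medium, which does not show that they were equal. The Atrx comparisons use different libraries of the same lines, and each shares its libraries with the comparisons between media.

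**Figure D2:**
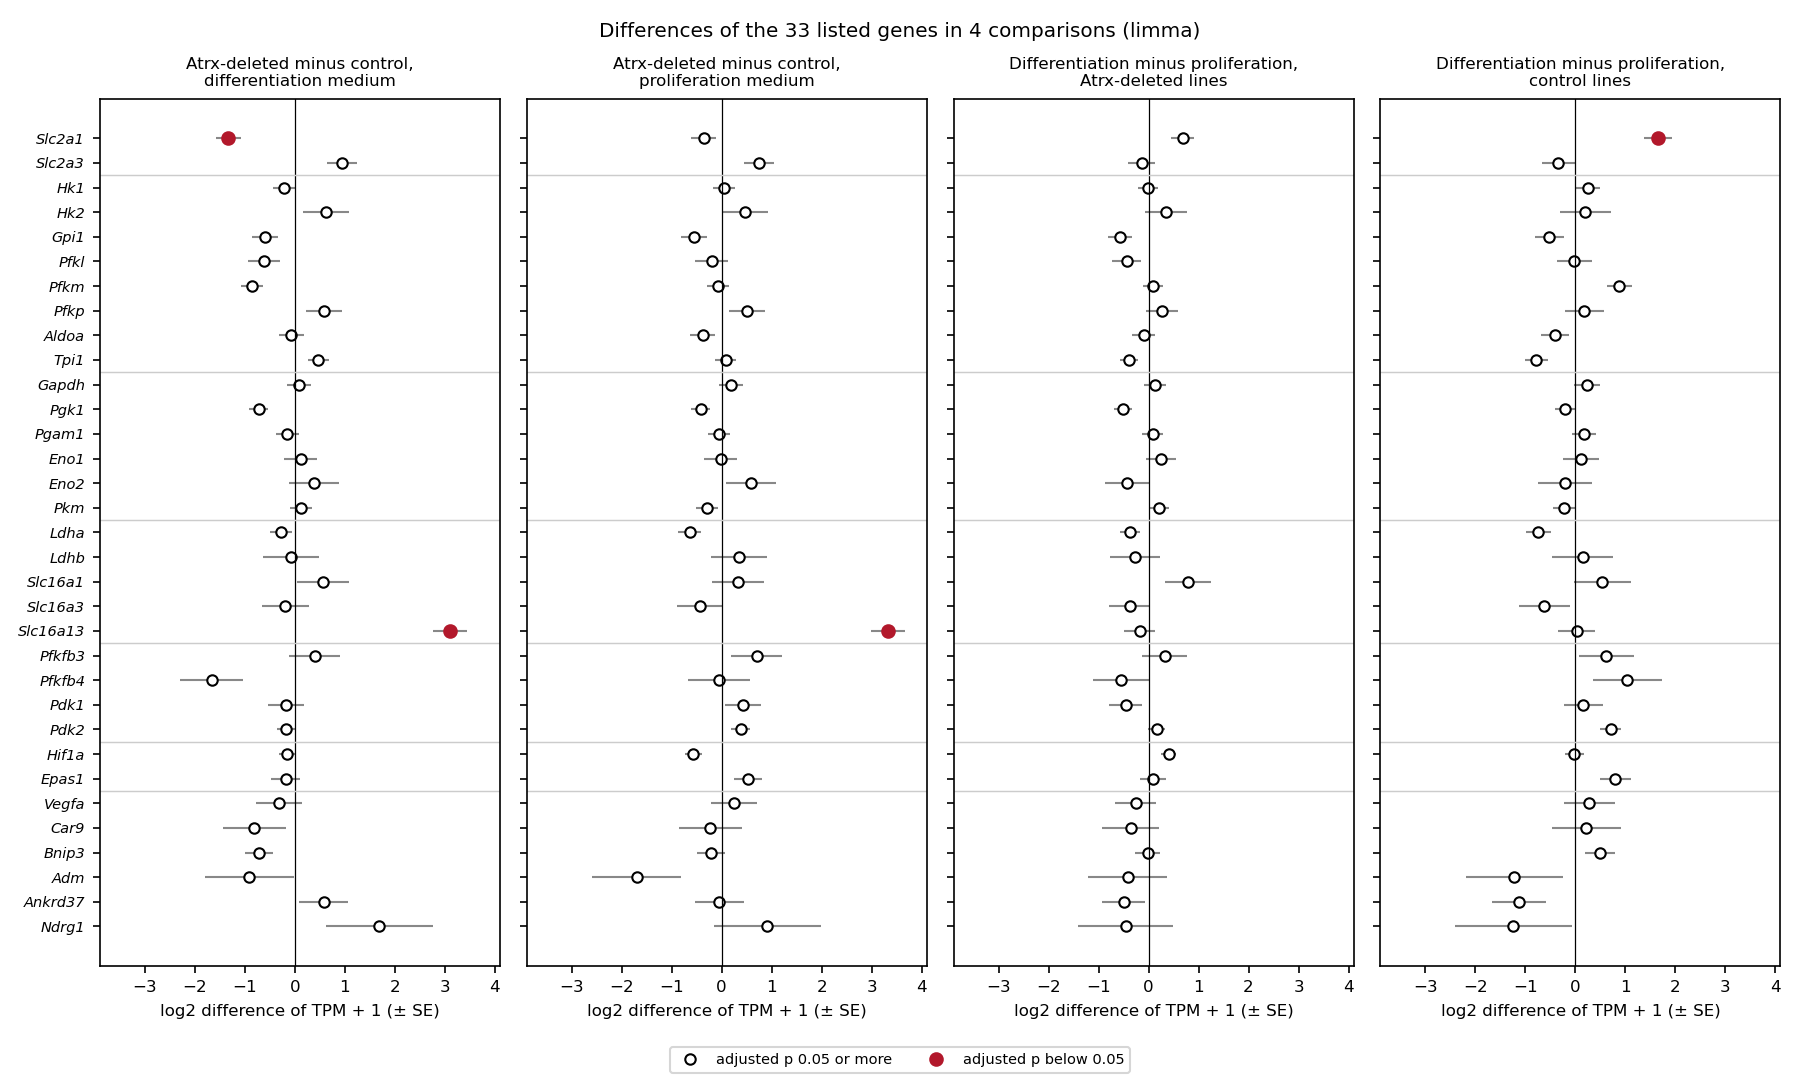
Difference of each listed gene on the log2(TPM + 1) scale (points, with SE as bars) in 4 comparisons, with genes grouped by role from glucose uptake at the top to hypoxia targets at the bottom. Filled points are genes with a limma adjusted p below 0.05: Slc2a1 and Slc16a13 in differentiation medium, Slc16a13 in proliferation medium, and Slc2a1 between media in control lines.

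Slc2a3, a second glucose transporter that is known for neuronal expression, had 21.3, 25.6 and 36.5 TPM in the Atrx-deleted lines and 16.4 and 11.3 TPM in the control lines in differentiation medium. Its proliferation medium levels were 26.5, 39.8 and 25.7 TPM in the Atrx-deleted lines and 20.5 and 14.99 TPM in the control lines. The Atrx-deleted libraries were above the control libraries in both media, with differences of 0.94 (SE 0.301, limma adjusted p = 0.12) and 0.74 (SE 0.301, limma adjusted p = 0.317) that did not pass the test. As a share of the summed TPM of Slc2a1 and Slc2a3, Slc2a3 made up 30.5%, 48.0% and 41.6% in Atrx-deleted lines and 13.5% and 9.78% in control lines in differentiation medium. The shares in proliferation medium were 53.8%, 57.5% and 51.8% in Atrx-deleted lines and 38.4% and 31.6% in control lines. The 2 transporters thus made up different shares of their sum in the 2 genotypes, with no overlap in either medium, and the share was not tested.

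Hexokinases trap glucose in the cell as glucose 6-phosphate. Hk1, the constitutive form in brain, had 57.0, 50.0 and 86.9 TPM in Atrx-deleted and 72.3 and 74.0 TPM in control lines in differentiation medium, and 60.6, 58.6 and 73.3 TPM in Atrx-deleted and 59.1 and 63.9 TPM in control lines in proliferation medium. Hk2, the inducible form, had 13.1, 19.0 and 5.55 TPM in Atrx-deleted and 6.01 and 7.97 TPM in control lines in differentiation medium, and 6.68, 13.3 and 7.06 TPM in Atrx-deleted and 5.50 and 6.36 TPM in control lines in proliferation medium. Hk2 was highest in mA19d#4 in both media, with 27.5% and 18.5% of the summed hexokinase level in differentiation and proliferation medium. In the control lines that share lay between 7.68% and 9.72% over both media.

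Phosphofructokinase commits sugar to glycolysis, and its 3 subunit genes differed in level. The muscle-type subunit Pfkm made up 77.9% to 86.4% of their summed TPM in Atrx-deleted and 84.3% to 87.9% in control lines in differentiation medium, and 72.2% to 81.1% in Atrx-deleted and 75.0% to 79.7% in control lines in proliferation medium. Pfkm had 190, 112 and 164 TPM in Atrx-deleted and 312 and 246 TPM in control lines in differentiation medium. The difference was -0.86 (SE 0.223, limma adjusted p = 0.0679), just short of the threshold. In proliferation medium Pfkm had 126, 152 and 154 TPM in Atrx-deleted and 153 and 147 TPM in control lines, where the groups overlapped. The liver-type Pfkl had 21.1, 18.7 and 35.6 TPM in Atrx-deleted and 38.4 and 36.5 TPM in control lines in differentiation medium, and 23.1, 46.7 and 33.5 TPM in Atrx-deleted and 33.7 and 43.0 TPM in control lines in proliferation medium. The platelet-type Pfkp was the lowest of the 3, at 8.82, 10.9 and 11.2 TPM in Atrx-deleted and 4.47 and 9.18 TPM in control lines in differentiation medium, and 6.27, 11.7 and 7.79 TPM in Atrx-deleted and 5.19 and 5.97 TPM in control lines in proliferation medium.

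The remaining enzymes of the chain were abundant, and their changes were small beside Slc16a13. The isomerase Gpi1 averaged 177 ± 7.42 TPM in Atrx-deleted (SD, n = 3) and 269 ± 6.19 TPM in control lines (SD, n = 2) in differentiation medium. Its difference was -0.60 there and -0.55 in proliferation medium (limma adjusted p = 0.238 and 0.39). Aldolase A (Aldoa), glyceraldehyde 3-phosphate dehydrogenase (Gapdh), phosphoglycerate mutase (Pgam1) and pyruvate kinase (Pkm) had Atrx differences between -0.38 and 0.19 in both media. Pkm averaged 1100 ± 146 TPM in Atrx-deleted and 996 ± 17.1 TPM in control lines in differentiation medium (SD, n = 3 and 2). Isoforms of Pkm cannot be told apart in values per gene.

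Pgk1, which makes the first ATP of glycolysis, had 154, 137 and 99.0 TPM in Atrx-deleted and 200 and 224 TPM in control lines in differentiation medium. Proliferating cultures had 163, 186 and 200 TPM in Atrx-deleted and 237 and 250 TPM in control lines. It was lower in each Atrx-deleted library than in each control library of the same medium. The differences were -0.72 (SE 0.195, limma adjusted p = 0.0777) and -0.42 (SE 0.195, limma adjusted p = 0.382), and neither passed. Pgk1 lies on the X chromosome, 258 kb from Atrx.

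Eno1, the ubiquitous enolase, had 1131, 588 and 1180 TPM in Atrx-deleted and 893 and 811 TPM in control lines in differentiation medium, and 965, 866 and 559 TPM in Atrx-deleted and 872 and 715 TPM in control lines in proliferation medium. Eno2, the neuronal enolase, had 6.24, 12.2 and 21.4 TPM in Atrx-deleted and 12.1 and 6.49 TPM in control lines in differentiation medium, and 12.7, 24.3 and 14.0 TPM in Atrx-deleted and 14.4 and 7.55 TPM in control lines in proliferation medium. Eno2 was at most 2.73% of the summed level of the pair in any library, and the groups overlapped.

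Summed over the 16 enzyme genes from hexokinase to pyruvate kinase plus lactate dehydrogenase, the level was 5917, 5149 and 5234 TPM in Atrx-deleted and 5413 and 5236 TPM in control lines in differentiation medium. In proliferation medium the sum was 4806, 6412 and 5012 TPM in Atrx-deleted and 5624 and 5696 TPM in control lines. The sums of the 2 genotypes overlapped in both media. In bulk RNA, fewer cells of a type and less RNA per cell cannot be told apart.

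Lactate dehydrogenase is assembled from the products of Ldha and Ldhb. Ldha, the subunit that favours lactate production, had 166, 174 and 214 TPM in Atrx-deleted and 225 and 217 TPM in control lines in differentiation medium. In proliferation medium Ldha had 175, 309 and 244 TPM in Atrx-deleted and 357 and 381 TPM in control lines, all Atrx-deleted libraries being below the controls, at a difference of -0.64 (SE 0.224, limma adjusted p = 0.25). Ldhb, the subunit that favours lactate use, had 969, 1180 and 260 TPM in Atrx-deleted and 730 and 680 TPM in control lines in differentiation medium. In proliferation medium Ldhb had 510, 1067 and 955 TPM in Atrx-deleted and 570 and 708 TPM in control lines. The Ldha share of both was 25.5%, 22.4% and 20.3% in Atrx-deleted and 38.5% and 35.0% in control lines in proliferation medium. In differentiation medium it was 14.6% and 12.8% in mA16d#4 and mA19d#4 but 45.1% in mA19d#7, against 23.5% and 24.2% in the control lines. The mA19d#7 value goes with its low Ldhb, whose difference in differentiation medium was -0.08 with that library and 0.60 without it (limma adjusted p = 0.959 and 0.293).

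**Figure D3:**
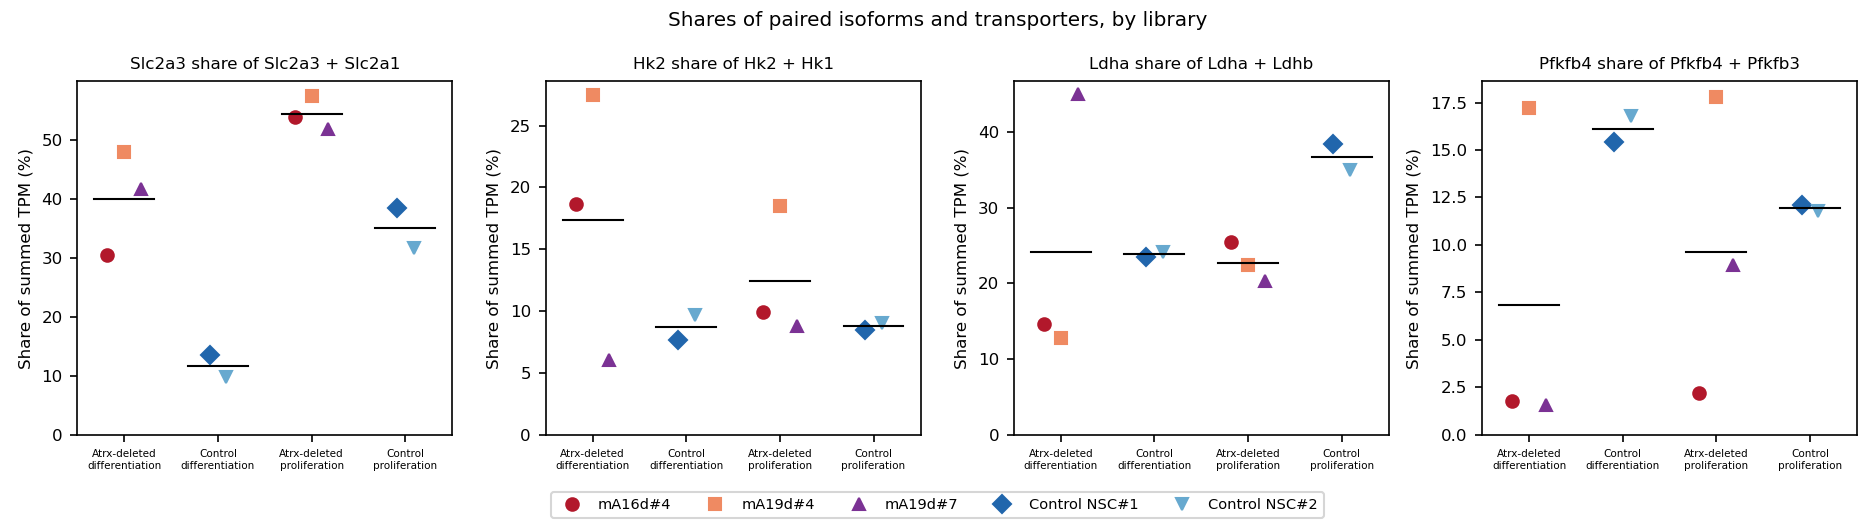
Share (%) of 1 gene in the summed TPM of a pair, by library, with bars at group means and axes from 0. The Slc2a3 share is higher in every Atrx-deleted library than in the control libraries of its medium, and the Ldha share of mA19d#7 in differentiation medium, 45.1%, stands apart from the other Atrx-deleted libraries.

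Slc16a1 (MCT1), a lactate carrier of wide expression, had 56.5, 59.4 and 220 TPM in Atrx-deleted and 61.8 and 59.6 TPM in control lines in differentiation medium, so that mA19d#7 alone was high. The Slc16a1 difference was 0.57 with that library and -0.07 without it (limma adjusted p = 0.576 and 0.919). Slc16a3 (MCT4), the carrier linked to lactate export from glycolytic cells, was at most 1.80 TPM in any library and reached 1 TPM in 6 of 10. Among the regulators, Pfkfb3, which makes the activator of phosphofructokinase, had 121, 64.3 and 269 TPM in Atrx-deleted and 103 and 91.0 TPM in control lines in differentiation medium, a difference of 0.40 with the mA19d#7 library and -0.14 without it (limma adjusted p = 0.705 and 0.865). Its proliferation medium levels were 164, 68.9 and 95.1 TPM in Atrx-deleted and 70.6 and 55.8 TPM in control lines. Its relative Pfkfb4 had 2.16, 13.3 and 4.29 TPM in Atrx-deleted and 18.8 and 18.4 TPM in control lines in differentiation medium, and 3.69, 14.9 and 9.33 TPM in Atrx-deleted and 9.69 and 7.49 TPM in control lines in proliferation medium. The Pfkfb4 difference was -1.66 (SE 0.626, limma adjusted p = 0.174) in differentiation medium and did not pass.

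Pyruvate dehydrogenase kinases keep pyruvate out of mitochondria. Pdk1, a hypoxia target, had 20.5, 19.9 and 20.9 TPM in Atrx-deleted and 24.1 and 22.5 TPM in control lines in differentiation medium, and 14.9, 40.5 and 37.4 TPM in Atrx-deleted and 18.2 and 23.5 TPM in control lines in proliferation medium. Pdk2 had 71.6, 64.2 and 76.8 TPM in Atrx-deleted and 75.6 and 83.9 TPM in control lines in differentiation medium, and 52.5, 69.0 and 69.7 TPM in Atrx-deleted and 41.7 and 56.1 TPM in control lines in proliferation medium. Pdk1 thus lay in a narrow band in differentiation medium and spread over a wider range in the Atrx-deleted lines when proliferating.

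Of the hypoxia factors, Hif1a had 181, 207 and 186 TPM in Atrx-deleted and 202 and 222 TPM in control lines in differentiation medium, where the groups overlapped. Proliferating cultures had 118, 157 and 163 TPM in Atrx-deleted and 203 and 226 TPM in control lines, with no overlap, a difference of -0.57 (SE 0.171, limma adjusted p = 0.19) that did not pass. Epas1, which encodes HIF-2 alpha, had 54.6, 37.7 and 30.1 TPM in Atrx-deleted and 40.0 and 50.9 TPM in control lines in differentiation medium, and 28.0, 48.9 and 37.8 TPM in Atrx-deleted and 24.3 and 26.8 TPM in control lines in proliferation medium. The HIF-alpha proteins are controlled chiefly by degradation, which RNA levels do not show.

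Of the 6 hypoxia targets 0 passed by limma in either medium, with 1 and 0 at an unadjusted p under 0.05 in differentiation and proliferation medium, and their differences in differentiation medium ran from -0.91 for Adm to 1.69 for Ndrg1. The mA19d#7 library raised both values: without it the difference was -1.94 for Adm and 0.36 for Ndrg1 (limma adjusted p = 0.0889 and 0.758). Without that library the Adm difference was thus larger, the Ndrg1 difference was smaller, and the highest of the 6 was 0.91 for Ankrd37. Bnip3, a mitophagy receptor, averaged 30.9 ± 3.91 TPM in Atrx-deleted and 51.3 ± 4.35 TPM in control lines in differentiation medium (SD, n = 3 and 2), a difference of -0.72 (limma adjusted p = 0.183). Adm, the vasoactive peptide adrenomedullin, had 5.99, 5.71 and 57.7 TPM in Atrx-deleted and 28.1 and 22.7 TPM in control lines in differentiation medium. Ndrg1, a stress-induced gene, had 6.91, 4.87 and 107 TPM in Atrx-deleted and 6.09 and 2.98 TPM in control lines there. For both genes mA19d#7 was the highest library of its medium while the other Atrx-deleted lines were at or below 6.91 TPM. Vegfa, the angiogenic growth factor, was highest in mA19d#4 in proliferation medium, at 118 TPM, and lay between 32.6 and 69.1 TPM elsewhere. Ankrd37, an ankyrin repeat gene induced by hypoxia, ranged from 1.73 to 7.93 TPM. Car9, a carbonic anhydrase that is a common marker of hypoxic cells, was below 0.14 TPM in 7 of 10 libraries and between 1.33 and 2.38 TPM in the other 3.

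The spread between lines differed by genotype. The median SD over the listed genes, on the log2(TPM + 1) scale, was 0.394 in Atrx-deleted and 0.12 in control lines in differentiation medium, and 0.417 in Atrx-deleted and 0.154 in control lines in proliferation medium. Over all tested genes the medians were 0.353 in Atrx-deleted and 0.141 in control lines in differentiation medium, and 0.264 in Atrx-deleted and 0.148 in control lines in proliferation medium. The test uses 1 estimate of spread per gene for all groups.

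Between media, Slc2a1 rose and Tpi1 fell. In Atrx-deleted lines the Slc2a1 change was 0.68 (SE 0.226, limma adjusted p = 0.219), with 1.06 in mA16d#4, -0.08 in mA19d#4 and 1.07 in mA19d#7. In control lines it was 3.21 times as high in differentiation as in proliferation medium, a change of 1.65 in each line (SE 0.277, limma adjusted p = 0.0125). That call was lost when any single control library was left out, at limma adjusted p values of 0.0726 to 0.15. The interaction of deletion and medium was -0.97 (SE 0.357, limma adjusted p = 0.614), so a difference between the responses was not shown. Averaged over both genotypes the change was 1.17 (SE 0.179, limma adjusted p = 0.00538), and it passed in all 22 alternatives tried, with adjusted p from 0.0016 to 0.0375.

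Tpi1 had 361, 264 and 357 TPM in the Atrx-deleted and 268 and 205 TPM in the control lines in differentiation medium, and 400, 509 and 374 TPM in the Atrx-deleted and 395 and 410 TPM in the control lines in proliferation medium. Every line was lower in differentiation medium, by -0.15, -0.95 and -0.06 in the Atrx-deleted and -0.56 and -1.0 in the control lines. The average over both genotypes was -0.58 (SE 0.148, limma adjusted p = 0.0348). The call was lost in 9 of 22 alternatives, among them the cell line as a fixed block (adjusted p = 0.077), no filter (0.0652) and no mean-variance trend (0.0621). It was also lost without either control library of either medium (0.0688 to 0.154) or without mA16d#4 or mA19d#4 in proliferation medium (0.0512 and 0.0766). Tpi1 lies on chromosome 6 at 124810586 to 124814296 and overlaps Spsb2 on the other strand by 34 bases. Spsb2 had a change of -0.39 (limma adjusted p = 0.211).

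**Figure D4:**
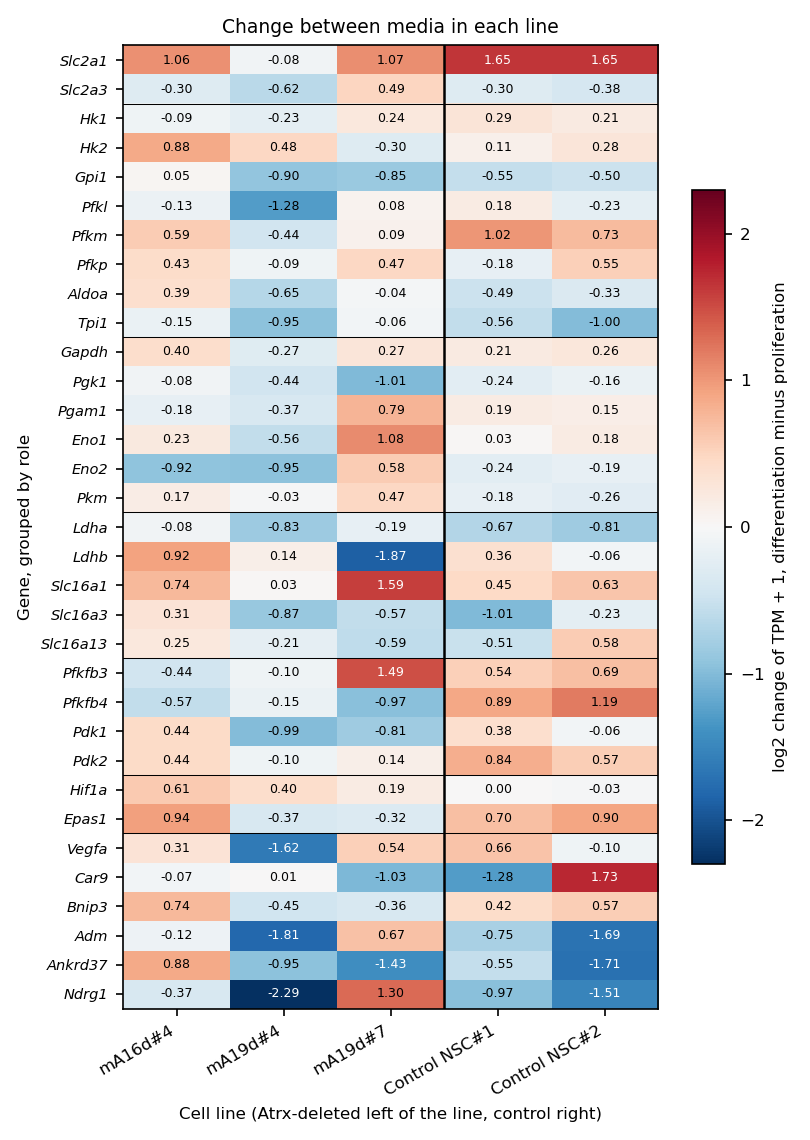
Change of each listed gene between media in each line, as log2(TPM + 1) in differentiation minus proliferation medium, with Atrx-deleted lines left of the black line and control lines right of it. Red is higher in differentiation medium. Slc2a1 is 1.65 in both control lines and -0.08 in mA19d#4, and Ndrg1 runs from -2.29 in mA19d#4 to 1.30 in mA19d#7.

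Over all 5 lines, 2 of 33 listed genes passed between media, where 10.4% of all tested genes passed, so the listed share of 6.06% was no larger than the background. In Atrx-deleted lines 0 of 33 passed by limma, where 0.083% of all tested genes passed, and 4 of 33 (12.1%) had an unadjusted p under 0.05, beside 14.8% of all tested genes. In control lines 1 of 33 passed, where 4.51% of all tested genes passed. For the interaction 0 of 33 passed by limma, where 0.00639% of all tested genes passed, and 2 of 33 (6.06%) had an unadjusted p under 0.05, Slc2a1 and Pfkm, beside 7.02% of all tested genes. The median change of the listed genes was -0.14 in Atrx-deleted and 0.15 in control lines, beside 0.01 and -0.01 over all tested genes. Genes just short of the threshold were Ldha, with a change over all lines of -0.55 (SE 0.158, limma adjusted p = 0.0522), which passed with the line as a random block, and Pdk2, with 0.43 (SE 0.135, limma adjusted p = 0.069). In control lines Pfkm changed by 0.88 (SE 0.244, limma adjusted p = 0.0727). Without the differentiation library of mA19d#7, Ldha (-0.61, limma adjusted p = 0.0288) and Ndrg1 (-1.51, limma adjusted p = 0.0355) also passed over all lines, which made 4 listed genes. The count over all 15660 tested genes rose as well, from 1629 in the main fit to 2509. With the whole line mA19d#7 left out, 2 listed genes passed, Slc2a1 and Tpi1, beside 2157 of all tested genes.

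Cell state differed between the groups as well. Summed TPM of 10 cycling markers was 492, 1087 and 794 in Atrx-deleted and 256 and 247 in control lines in differentiation medium, and 949 to 1339 in Atrx-deleted and 850 and 1298 in control lines in proliferation medium. Of these 10 markers, 7 passed as higher in Atrx-deleted lines in differentiation medium, among them Mki67, at 55.6, 163 and 90.5 TPM in Atrx-deleted and 23.1 and 23.5 TPM in control lines. Summed TPM of 10 astrocyte markers was 4829, 2765 and 4743 in Atrx-deleted and 8936 and 9810 in control lines in differentiation medium, and 2033, 2550 and 3436 in Atrx-deleted and 1512 and 2117 in control lines in proliferation medium. The astrocyte markers were not lower as 1 group in Atrx-deleted lines in differentiation medium: 5 of 10 differences were positive and 5 negative, and 2 passed, Slc4a4 and Apoe, both lower. Slc2a1 was highest in the libraries with the highest astrocyte and lowest cycling sums, and mA19d#4, whose Slc2a1 change was -0.08, had the lowest astrocyte and highest cycling sum in differentiation medium. The order was different in proliferation medium. There Control NSC#1 had the lowest astrocyte sum (1512) and the highest Slc2a1 level (32.8 TPM). The highest astrocyte sum there (3436) was in mA19d#7, which had 23.9 TPM of Slc2a1. The part of cell makeup in the Slc2a1 differences was not tested. Slc16a13 was at or below 3.56 TPM in control libraries whose cycling sums ran from 247 to 1298. The part of cell state in the Slc16a13 difference was not tested either.

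Related genes outside the list were counted in 7 further lists written from general knowledge. For Atrx deletion in proliferation medium 0 of the 123 tested genes of these lists passed by limma, and 18 (14.6%) had an unadjusted p under 0.05, beside 13.7% of all tested genes. In differentiation medium 1 of 17 tested genes of other glycolysis isozymes and side steps passed, the aldose epimerase Galm. It had 35.4, 23.3 and 36.9 TPM in Atrx-deleted and 11.0 and 10.5 TPM in control lines, a difference of 1.45 (SE 0.256, limma adjusted p = 0.0206). The other lists gave 0 there by limma (18 of 106 genes at an unadjusted p under 0.05, where 20.2% of all tested genes lay), namely other glucose and monocarboxylate transporters (19 tested), pyruvate entry into mitochondria (12), oxygen sensing (14), other hypoxia response genes (32), the pentose phosphate pathway (9) and the tricarboxylic acid cycle (20).

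Between media, 5 of 32 other hypoxia response genes (15.6%) passed over all lines, beside 10.4% of all tested genes, 4 higher and 1 lower in differentiation medium. Hmox1, the heme oxygenase, changed by 1.82 (SE 0.325, limma adjusted p = 0.00896), Bhlhe41, a clock and hypoxia repressor, by 1.80 (SE 0.25, limma adjusted p = 0.00374) and Higd1a, a mitochondrial protein, by 1.52 (SE 0.223, limma adjusted p = 0.00444). Hmox1 was at 216, 171 and 705 TPM in Atrx-deleted and 264 and 297 TPM in control lines in differentiation medium, and between 74.9 and 87.7 TPM in proliferation medium. Narf changed by -0.69 (SE 0.18, limma adjusted p = 0.0373). The median of this list was -0.05 and 20 of 32 changes were negative, so these genes did not move as 1 group.

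Of the other transporters, Slc16a6 rose by 1.47 (SE 0.255, limma adjusted p = 0.00822) and Slc16a9 by 1.27 (SE 0.255, limma adjusted p = 0.0144) in differentiation medium over all lines. Pgm2, a phosphoglucomutase, rose by 1.10 (SE 0.216, limma adjusted p = 0.013), and the muscle enolase Eno3 and Galm changed by -0.79 and -0.71 (limma adjusted p = 0.0431 and 0.0349). Pdhx, a subunit of the pyruvate dehydrogenase complex, rose by 0.56 (SE 0.116, limma adjusted p = 0.0159), and Arnt, the partner of the HIF-alpha proteins, changed by -0.49 (SE 0.137, limma adjusted p = 0.0458). Over all lines 13 of the 123 tested genes of the 7 lists passed by limma, beside 10.4% of all tested genes. At an unadjusted p under 0.05 there were 46 (37.4%), beside 25.7%. In control lines alone 5 of these 123 passed by limma, beside 4.51% of all tested genes. Bhlhe41 (2.02), Higd1a (1.77), Eno4 (1.95) and Mpc2 (0.92), a subunit of the mitochondrial pyruvate carrier, were higher and Narf (-1.15) lower in differentiation medium. At an unadjusted p under 0.05 there were 24 (19.5%), beside 19.9%. In Atrx-deleted lines alone 0 of these 123 genes passed by limma, and 26 (21.1%) had an unadjusted p under 0.05, beside 14.8% of all tested genes.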

How the data were processed

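RNA-seq libraries of 10 mouse neural stem cell samples were analysed from 1 table of 21101 genes. The authors deposited log2 values. Reads had been aligned with STAR to mm10, per the submitters' processing notes. Not given in the sources used here: annotation, versions, expression tool. All 10 columns have identical sorted values, which shows quantile normalisation by the authors. The floor is -8, shared by 1213 genes per library, and back-transformed values sum to 997524, so the scale was read as log2 TPM. Depth is therefore unknown, a shift in total RNA is invisible, and the levels of very abundant genes are set by rank.

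The design had assumed linear TPM, so values were back-transformed. The response log2(TPM + 1) was modelled in limma 3.58.1 under R 4.3.3, using a mean-variance trend and 4 group means, with 6 residual degrees of freedom among the 10 libraries. The filter kept 15660 genes that reached 1 TPM in 2 or more libraries. P-values were adjusted by Benjamini-Hochberg across the tested genes within each of 6 comparisons, at a threshold of 0.05. Differences on this scale understate those of low genes. The comparison over all 5 lines weights both genotypes equally. The code of the fit was run on simulated data with independent libraries and 1 spread per gene. That run does not cover lines shared between media or the unequal spread of the 2 genotypes.

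The same cell line was grown in both media, so lines pair the samples between media. Deviations from group means correlated at r = 0.159 for mA16d#4, 0.404 for mA19d#4, -0.194 for mA19d#7 and 0.0624 for the control lines. A single value of 3 lines against 2 could not reach an exact permutation p below 0.1. Alternatives were other pseudocounts and filters, robust estimation, no trend, compared groups alone, the line as a block, a median-of-ratios rescaling, and each library left out. Leaving out mA19d#7 was added after seeing the data. All listed genes are accounted for, values per library are given for those that passed and for fixed isoform pairs, and others were described after their values were seen. A related gene outside the list that the rule names is not reported here. The members and lists were chosen with earlier results of these data known. Positions are from GENCODE M21.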

Additional observations from a re-analysis of the deposited data

Results flagged for a closer look

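Pfkfb4, which encodes a kinase that sets the activator of phosphofructokinase, had differences between media of opposite sign in the 2 genotypes, and neither passed the test: -0.56 in Atrx-deleted lines and 1.04 in control lines (limma adjusted p = 0.688 and 0.456). Its log2(TPM + 1) change was -0.57, -0.15 and -0.97 in the Atrx-deleted lines mA16d#4, mA19d#4 and mA19d#7, and 0.89 and 1.19 in the control lines. Every Atrx-deleted line was lower and both control lines were higher in differentiation medium, which is what drew attention to it. The interaction of deletion and medium was -1.60 (SE 0.885, limma adjusted p = 0.781), so the test of the difference did not pass. Groups of 2 or 3 libraries are too small for a check for single outlying samples.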

How the results depend on the processing

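The count of listed genes that passed was 0 in every alternative for the change between media in Atrx-deleted lines and for the interaction, and no call changed direction. For Atrx deletion in differentiation medium the count of 2 became 1 with no filter on low levels and 0 with the compared groups fitted alone. Over all tested genes 452 passed in the main fit, 311 with no filter and 2 with the compared groups alone. For the media in control lines the count of 1 became 5 with the compared groups alone (Slc2a1, Tpi1, Gpi1, Ldha and Pfkm) and 2 with the line as a fixed block and mA19d#7 left out (Slc2a1 and Pfkfb3). The counts over all tested genes rose too, from 706 in the main fit to 2080 and 1848 in these 2 settings. For the media over all lines the count of 2 became 1 with no filter, 1 without trend, 1 with the line as a fixed replicate block, and 5 with that block and mA19d#7 left out (Slc2a1, Tpi1, Ldha, Ndrg1 and Adm). Over all tested genes the main count of 1629 became 1193, 1327, 1316 and 2930 in these settings, in the same order. With the line as a random block Ldha also passed over all lines, and neither block changed another call on a listed gene. The cause of these shifts was not tested. Leaving out single libraries gave 0 to 1 listed genes for Atrx deletion in proliferation medium, 0 to 3 in differentiation medium, 0 to 2 for the media in control lines and 1 to 4 over all lines. With 2 control lines, each control library carries much of a call, and depth, which is unknown, sets no stated limit.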
